A study of Mus musculus with 6 samples.

Results

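Platelet-derived growth factor (PDGF) ligands and genes of the alveolar myofibroblast were followed across 6 lungs, taken whole at E18.5 from C57 mice. The 9 genes were taken by symbol from a table of 55359 genes. They are the ligand genes Pdgfa, Pdgfb, Pdgfc and Pdgfd, the receptor gene Pdgfra, and Tgfbi, Aspn, Stc1 and Lgr6. Each symbol stood on 1 row, and all 9 had enough counts to be tested. The rule for choosing them used no measured value, but the genes were picked with earlier results of these data known.

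Of the 6 lungs, 3 carry a genotype label of WT and 3 a label of Prmt5 knockdown. Prmt5 encodes an enzyme that adds symmetric dimethyl marks to arginines. The series text calls the second group a mesenchymal Prmt5 knockout specific to Dermo1, a gene now named Twist2 that is active in embryonic mesenchyme. The labels do not give the alleles or say whether the wild type lungs carried the Dermo1 driver, and the housing protocol speaks of pregnant mice that have the knockdown themselves. Nothing in the labels says that the embryos came from separate litters, so the spread behind each p-value is that between these 6 samples and may be technical in part. Prmt5 itself, at 46.7 to 48.3 CPM in wild type, where CPM is the count of a gene relative to the library total, ranged from 39.6 to 47.8 CPM in the other group. Its log2 fold change of -0.08 did not pass the edgeR test (adjusted p = 0.682), so the second group is called knockdown-labelled here.

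PDGF signals run between the tissues of the lung. PDGF-A made by epithelium acts on the receptor PDGFRα of mesenchymal cells and is needed for alveolar myofibroblasts, the contractile cells that lay down elastin where septa form. PDGF-B made by endothelium acts on PDGFRβ of pericytes, the mural cells of capillaries. PDGF-C and PDGF-D are secreted in a latent form that proteases cleave; PDGF-C then binds PDGFRα and PDGF-D binds PDGFRβ.

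The sequences before the start sites of 3 genes are shown because Pdgfra is the receptor of the myofibroblast lineage, while Tgfbi and Pdgfc had the largest log2 differences downward and upward among the 9. They are from RefSeq on GRCm38.p6, read 5′ to 3′ on the strand of the gene, and end at the start site or before it. Their positions cannot be compared with the gene coordinates given further below, for which no build is named. Capitals mark matches to any of 5 short motifs searched on both strands.
Pdgfra, chr5:75152001-75152250, plus strand: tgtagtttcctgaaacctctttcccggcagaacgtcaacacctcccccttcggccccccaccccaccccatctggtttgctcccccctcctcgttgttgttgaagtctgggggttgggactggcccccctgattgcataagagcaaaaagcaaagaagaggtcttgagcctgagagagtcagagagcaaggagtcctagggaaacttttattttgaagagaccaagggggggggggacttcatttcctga
Tgfbi, chr13:56609336-56609522, plus strand: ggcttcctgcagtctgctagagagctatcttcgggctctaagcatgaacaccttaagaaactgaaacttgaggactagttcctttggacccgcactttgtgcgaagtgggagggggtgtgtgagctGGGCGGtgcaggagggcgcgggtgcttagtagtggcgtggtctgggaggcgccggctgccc
Pdgfc, chr3:81036166-81036415, plus strand: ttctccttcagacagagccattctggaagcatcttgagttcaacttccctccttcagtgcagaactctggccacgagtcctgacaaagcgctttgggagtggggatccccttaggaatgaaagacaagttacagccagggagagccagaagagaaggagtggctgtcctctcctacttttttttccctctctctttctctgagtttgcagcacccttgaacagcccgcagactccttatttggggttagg

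The Tgfbi stretch is 187 bases long because the rest of its window of 250 runs into an exon of Tgfbi in the GENCODE M21 annotation. It holds 1 GC box (GGGCGG), which begins 124 bases before the start site. Neither the Pdgfra nor the Pdgfc window holds any of the 5 motifs. Among 32851 RefSeq windows of 250 bases, 32.7% hold a GC box. The letters CCAAT are held by 33.8% of these windows. A match to TATAAA, searched for as the TATA box, is found in 12.4% of them. The E box searched for was CAGCTG, which reads alike on both strands and is held by 13.0%. The forkhead core TGTTTAC is held by 3.17% of the windows. A GC box is thus met in many windows, and the 3 sequences share no match. Windows were found for 7 of the 9 genes, of which 3 are shown here, and none was found for Pdgfb or Stc1.

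The comparison of the groups asks how this signalling set stood in lungs labelled Prmt5 knockdown, which the series text describes as targeted in mesenchyme. Pdgfa, Pdgfb, Pdgfra and Tgfbi had lower CPM in every knockdown-labelled lung than in every wild type lung, and Pdgfc had higher CPM. The differences of the means ran from 1.15-fold lower for Pdgfa to 1.54-fold lower for Tgfbi, and to 1.97-fold higher for Pdgfc. Pdgfd, Aspn, Stc1 and Lgr6 had groups that overlapped. In edgeR's quasi-likelihood test 0 of the 9 passed a Benjamini-Hochberg adjusted p of 0.05, and 0.0338% of the 17728 genes tested did (0.00564% higher, 0.0282% lower). An unadjusted p under 0.05 was met by 5 of the 9 (1 higher, 4 lower), against 17.0% of all genes (8.48% higher, 8.52% lower). The groups did not overlap for the same 5 of 9, against 23.2% of all genes (10.8% higher, 12.4% lower). With DESeq2, 4 of the 9 passed an adjusted p of 0.05 (Pdgfb, Pdgfra and Tgfbi lower, Pdgfc higher), against 5.20% of the genes to which it gave one (2.27% higher, 2.94% lower). The median log2 fold change of the 9 was -0.07, beside 0.01 over all genes tested.

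**Figure D1:**
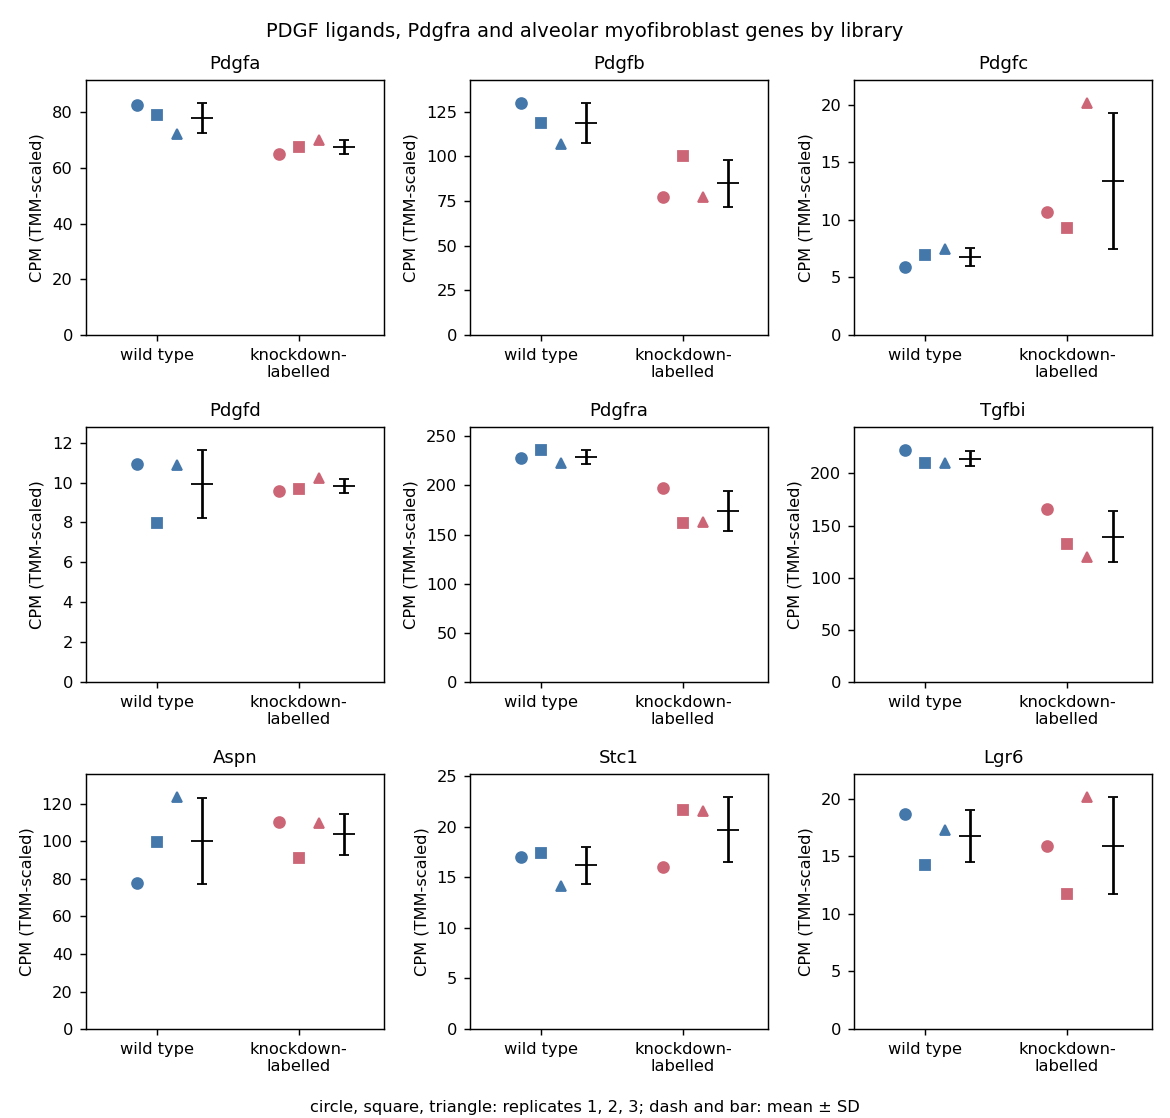
CPM of the 9 genes (y axis, TMM-scaled, from 0) in the 3 wild type and 3 knockdown-labelled lungs, with circle, square and triangle for replicates 1, 2 and 3 and a dash with bar for the mean ± SD. The groups are apart for Pdgfa, Pdgfb, Pdgfc, Pdgfra and Tgfbi, and the triangle at 20.1 CPM for Pdgfc lies far above the other knockdown-labelled lungs at 9.27 and 10.7.

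Libraries held 14383415 to 19262837 counts assigned to genes, so that 3 counts correspond to 0.156 to 0.209 CPM. The lowest count of any of the 9 genes in a library was 96, for Pdgfc. Sex-linked transcripts showed 1 male among the wild type lungs and 2 among the knockdown-labelled ones. The alveolar type 2 gene Sftpc, a defining lung gene, stood at 8837 ± 950 and 9428 ± 979 CPM (SD, n = 3 each). Heart muscle genes moved with the label: all 13 on the list had positive log2 fold changes, as did 9375 of the 17728 genes tested. Of the 13, 10 were higher without overlap, against 10.8% of all genes. An unadjusted edgeR p under 0.05 with a higher mean was met by 8, against 8.48%. The summed level of the 13 was 591 to 3521 CPM in wild type against 4226 to 12704 CPM. None of these 13 was at 0 in all libraries. Mitochondrially encoded genes took 2.06 to 2.34% of counts in wild type and 1.73 to 4.20% in the other group. With library totals that leave out heart muscle, erythroid and mitochondrial genes, the groups did not overlap for 5 of the 9 genes. Of these, 1 was higher and 4 were lower. The share of all genes without overlap was not computed with these totals, and it was 23.2% with the main scaling. RNA of a whole organ cannot tell fewer cells of a type from less RNA per cell.

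Pdgfa (ENSMUSG00000025856, chromosome 5, 138961769 to 138983125, minus strand, as the table gives it) encodes the ligand of the epithelium. It was at 82.7, 79.1 and 72.2 CPM in wild type replicates 1, 2 and 3 and at 64.9, 67.5 and 70.2 CPM in knockdown-labelled replicates 1, 2 and 3. The gap between the lowest wild type and the highest knockdown-labelled lung was narrow. The means were 78.0 ± 5.35 and 67.5 ± 2.65 CPM (SD, n = 3 each). Pdgfa had a log2 fold change of -0.21 (standard error 0.08, 95% interval -0.39 to -0.03). Its edgeR p was 0.0309 and the adjusted p 0.253. In edgeR fits it no longer had an unadjusted p under 0.05 without wild type replicate 1 or 2, without knockdown-labelled replicate 1 or 2, with the reduced library totals, or with a filter at a mean of 5 FPKM. The log2 fold change there lay between -0.21 and -0.16.

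Pdgfb (ENSMUSG00000000489, chromosome 15, 79880075 to 79899178, minus strand) encodes the endothelial ligand. Wild type replicates 1, 2 and 3 had 130, 119 and 107 CPM. Knockdown-labelled replicates 1, 2 and 3 had 77.1, 99.98 and 77.5 CPM, so that replicate 2 stood closest to wild type. Means of 119 ± 11.3 and 84.9 ± 13.1 CPM (SD, n = 3 each) gave a log2 fold change of -0.48 (standard error 0.13, 95% interval -0.78 to -0.19). Its edgeR p was 0.00635 and the adjusted p 0.167. It kept an unadjusted p under 0.05 in every fit of the 16 alternatives, with log2 fold changes between -0.62 and -0.41.

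Pdgfc (ENSMUSG00000028019, chromosome 3, 80943723 to 81121347, plus strand) encodes a ligand cleaved outside the cell. It was the only ligand gene with a higher mean. Its counts were 96, 98 and 117 in wild type, against 173, 131 and 393. In CPM this is 5.93, 6.92 and 7.50 against 10.7, 9.27 and 20.1. Averages of 6.78 ± 0.792 and 13.4 ± 5.91 CPM (SD, n = 3 each) correspond to a log2 fold change of 0.98 (95% interval 0.26 to 1.70). In edgeR the p was 0.0148 and the adjusted p 0.204.
Knockdown-labelled replicate 3 carried much of the size: without it the log2 fold change was 0.56 (edgeR adjusted p = 0.308). That library also had the highest summed level of cartilage genes, 59.4 CPM against 11.8 to 23.0 CPM in the other 5, and of smooth muscle genes, 1507 against 844 to 1140 CPM. Adventitial fibroblast genes were highest there too, at 827 against 598 to 717 CPM. The part of those cells in the Pdgfc value was not tested. With embryo sex in the model the log2 fold change was 0.87 and Pdgfc no longer met an unadjusted threshold of 0.05 (edgeR p 0.0504, adjusted p 0.352). Nor did it without wild type replicate 1, where the edgeR p was 0.0519.

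Pdgfd (ENSMUSG00000032006, chromosome 9, 6168584 to 6378850, plus strand) encodes the other ligand that needs cleavage. Wild type lungs had 10.9, 7.98 and 10.9 CPM of it, and knockdown-labelled lungs 9.57, 9.69 and 10.2 CPM. All knockdown-labelled values lay inside the wild type range. Pdgfd had a log2 fold change of -0.02 with a 95% interval of -0.40 to 0.37 (edgeR adjusted p = 0.977), which leaves room for a difference of either sign.

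**Figure D2:**
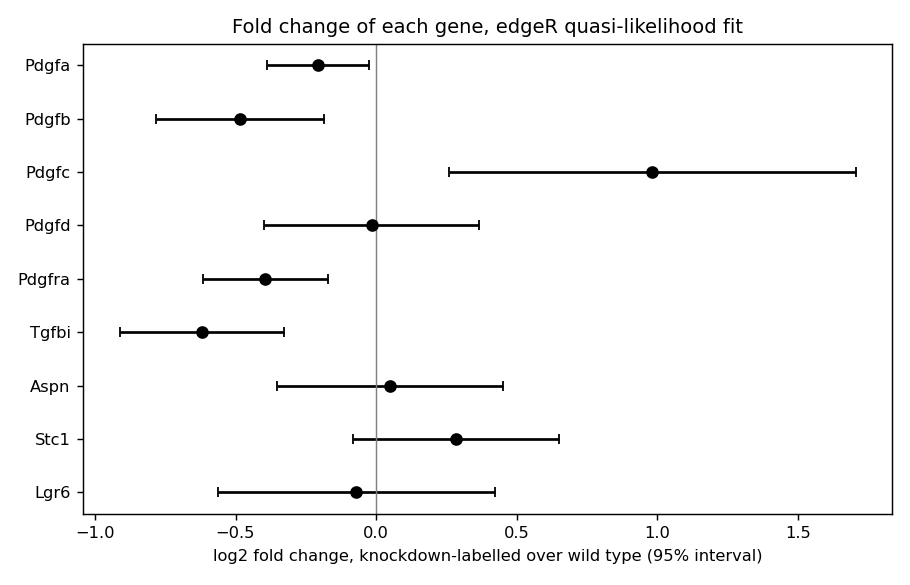
Log2 fold change of knockdown-labelled over wild type (x axis) for each of the 9 genes, as points with 95% intervals from the edgeR fit, n = 3 each. The intervals of Pdgfa, Pdgfb, Pdgfra and Tgfbi lie below 0 and that of Pdgfc above it, before any adjustment, while those of Pdgfd, Aspn, Stc1 and Lgr6 cross 0.

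Per exonic length, as the FPKM of the deposited table, which are counts relative to library total and gene length, Pdgfb and Pdgfa made up most of the ligand RNA. In wild type Pdgfb stood at 28.3 ± 2.51 and Pdgfa at 24.8 ± 1.51 FPKM, with ranges that overlapped (25.9 to 30.9 and 23.2 to 26.2). Pdgfd at 3.13 ± 0.555 and Pdgfc at 1.32 ± 0.166 FPKM were far lower, and their ranges were apart. In the knockdown-labelled lungs Pdgfa stood at 21.7 ± 0.998 and Pdgfb at 20.4 ± 2.80 FPKM (SD, n = 3 each throughout), again with overlapping ranges. Pdgfb exceeded Pdgfa in every wild type lung and in knockdown-labelled replicate 2, and Pdgfa exceeded Pdgfb in knockdown-labelled replicates 1 and 3.

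The sum of the 4 ligand genes was 61.7, 56.9 and 54.0 FPKM in wild type. Under the knockdown label it was 44.7, 49.7 and 49.0 FPKM, without overlap. Pdgfb made up 49.1 ± 1.12% of that sum in wild type, against 42.6 ± 4.55%. The Pdgfa share was 43.1 ± 0.700% against 45.4 ± 2.24%, with overlapping groups (exact permutation p = 0.3, two-sided). Pdgfc made up 2.32 ± 0.438% against 5.50 ± 2.39%, and Pdgfd 5.45 ± 1.03% against 6.54 ± 0.400%. An exact permutation test of 3 against 3 lungs cannot go below p = 0.1, the value found for the sum and for the shares of Pdgfb and Pdgfc. Over the 10 sums, shares and ratios tested this way the smallest Benjamini-Hochberg adjusted value of the exact permutation test was 0.2.

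**Figure D3:**
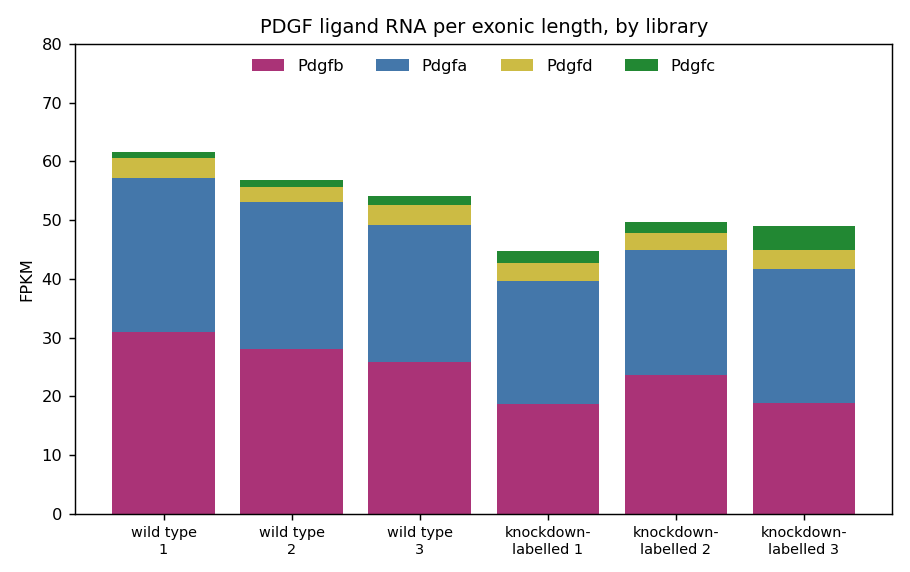
FPKM (y axis, from 0) of the 4 PDGF ligand genes, stacked for each of the 6 lungs on the x axis. The 3 knockdown-labelled bars end at 44.7 to 49.7 FPKM, below the wild type bars at 54.0 to 61.7, and the Pdgfc segment is thickest in knockdown-labelled replicate 3.

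Pdgfra (ENSMUSG00000029231, chromosome 5, 75312953 to 75358876, plus strand) encodes the receptor of PDGF-A and PDGF-C. It had 228, 236 and 223 CPM in wild type replicates 1, 2 and 3 and 198, 161 and 163 CPM in knockdown-labelled replicates 1, 2 and 3. Knockdown-labelled replicate 1 lay nearest to wild type, and the wild type lungs differed little among themselves. Means were 229 ± 6.69 and 174 ± 20.4 CPM (SD, n = 3 each), 1.31-fold lower. On the log2 scale the fold change was -0.39 (standard error 0.09, 95% interval -0.62 to -0.17). The edgeR p was 0.00411 and the adjusted p 0.146. Over the 6 fits that each left out 1 lung it ranged from -0.49 to -0.34, with edgeR adjusted p-values of 0.131 to 0.517.

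Pdgfrb, which encodes the receptor of pericytes and is not among the 9, was measured beside it. Wild type lungs had 316, 310 and 271 CPM and knockdown-labelled ones 245, 251 and 219 CPM, again without overlap. Its log2 fold change was -0.33 (95% interval -0.54 to -0.11), with an edgeR adjusted p of 0.180. The log2 ratio of Pdgfrb to Pdgfra, in FPKM, was 1.25 ± 0.0967 in wild type, against 1.33 ± 0.165 (SD, n = 3 each, exact permutation p = 0.6, two-sided). The balance of the receptor RNAs thus overlapped between the groups, and without knockdown-labelled replicate 2 the small difference had the other sign.

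Tgfbi (ENSMUSG00000035493, chromosome 13, 56757336 to 56787375, plus strand) encodes a matrix protein induced by TGF-beta that binds collagens and integrins. It had the smallest p of the 9. It stood at 222, 210 and 210 CPM in wild type replicates 1, 2 and 3 and at 166, 132 and 120 CPM in knockdown-labelled replicates 1, 2 and 3. The wild type lungs lay close together and the knockdown-labelled ones were spread more widely below them. Means of 214 ± 7.34 and 139 ± 24.1 CPM (SD, n = 3 each) gave a log2 fold change of -0.62 (standard error 0.12, 95% interval -0.91 to -0.33). The edgeR p was 0.00155 and the adjusted p 0.123. With 1 lung left out it ranged from -0.75 to -0.52, and the edgeR adjusted p from 0.130 to 0.517.

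Aspn (ENSMUSG00000021388, chromosome 13, 49697919 to 49721041, plus strand) encodes asporin, a small leucine-rich proteoglycan of the matrix. It varied widely within wild type, at 77.7, 99.7 and 124 CPM, around the knockdown-labelled values of 110, 91.2 and 110 CPM. Its log2 fold change was 0.05 with a 95% interval of -0.35 to 0.45 (edgeR adjusted p = 0.923).

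Stc1 (ENSMUSG00000014813, chromosome 14, 69266687 to 69279253, plus strand) encodes stanniocalcin 1, a secreted glycoprotein. Its values were 17.1, 17.4 and 14.1 CPM in wild type against 16.0, 21.7 and 21.5 CPM. Replicates 2 and 3 of the second group lay above all wild type lungs and replicate 1 inside their range. Stc1 had a log2 fold change of 0.28 (95% interval -0.08 to 0.65, edgeR adjusted p = 0.401), and 0.42 without knockdown-labelled replicate 1 (edgeR adjusted p = 0.195).

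Lgr6 (ENSMUSG00000042793, chromosome 1, 134911039 to 135033014, minus strand) encodes a receptor for R-spondins, which enhance Wnt signals. In wild type it was at 18.7, 14.3 and 17.3 CPM, against 15.9, 11.7 and 20.1 CPM under the knockdown label. The lowest and the highest value both came from knockdown-labelled lungs. Lgr6 had a log2 fold change of -0.07 with a 95% interval of -0.56 to 0.42 (edgeR adjusted p = 0.906). It was 0.10 without knockdown-labelled replicate 2 and -0.28 without replicate 3.

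In FPKM the order of the receptor and myofibroblast genes in wild type was Tgfbi (56.3 ± 1.87), Aspn (42.4 ± 10.1), Pdgfra (22.6 ± 0.467), Stc1 (3.83 ± 0.397) and Lgr6 (2.43 ± 0.335). No neighbours in that order had overlapping ranges. In the knockdown-labelled lungs Aspn (44.1 ± 5.27) stood above Tgfbi (37.0 ± 6.49), with overlapping ranges, followed by Pdgfra (17.4 ± 2.15), Stc1 (4.70 ± 0.756) and Lgr6 (2.33 ± 0.650). Tgfbi exceeded Aspn in every wild type lung and Aspn exceeded Tgfbi in every knockdown-labelled lung. The difference between these genes was not tested.

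Other genes of the alveolar myofibroblast were mixed. Of 20 listed beside the 9, all tested, 1 passed an adjusted p of 0.05 in edgeR, against 0.0338% of all genes (0.0282% lower). It was Wnt5a, a secreted signal, which fell from 67.3 ± 2.69 to 39.8 ± 1.65 CPM (SD, n = 3 each, edgeR adjusted p = 0.0414). That call was lost in each of the 6 edgeR fits that left out 1 lung (adjusted p from 0.0569 to 0.224), with log2 fold changes between -0.79 and -0.73. It was also lost with embryo sex in the model (edgeR adjusted p 0.0933), with the reduced library totals (0.0644), with the filter at 5 FPKM (0.0539) and with limma at both pseudocounts (0.0657 and 0.0777). The call held with DESeq2 (adjusted p 3.65e-11). In edgeR it also held with no filter on low counts (adjusted p 0.0119) and with robust fitting (0.0307). It held there with DESeq2 size factors (0.0426) and with upper quartile scaling (0.0470) as well. An unadjusted p under 0.05 was met by 6 with a lower mean, against 8.52% of all genes, and 2 with a higher one, against 8.48%. The 2 higher ones were Des and Myl9. Myl9 stood at 129, 126 and 210 CPM in wild type, against 213, 275 and 231 CPM, without overlap (edgeR adjusted p = 0.224). The median log2 fold change of the 20 was -0.15. Besides Wnt5a the smallest p belonged to Hhip, a Hedgehog inhibitor (374 ± 26.8 against 182 ± 30.5 CPM, edgeR adjusted p = 0.0780), Ltbp2, a microfibril gene (237 ± 3.97 against 178 ± 8.37, adjusted p = 0.0942), and Bmp5 (50.5 ± 2.04 against 36.5 ± 3.30, adjusted p = 0.116). Among genes this list shares with smooth muscle, Acta2, which encodes smooth muscle actin, stood at 300.5 ± 27.4 and 345 ± 92.4 CPM with overlapping groups. Of the 10 smooth muscle genes 0 passed, and their median log2 fold change was 0.28. Des alone was higher at an unadjusted p under 0.05 (1 of 10, against 8.48% of all genes), and its groups overlapped. It stood at 69.9, 55.6 and 167 CPM in wild type, against 142, 232 and 306 CPM. The summed heart muscle level was 591, 696 and 3521 CPM in wild type, against 4800, 12704 and 4226 CPM. The part of heart muscle in the Des value was not tested. The elastin gene Eln had 4959 ± 515 and 5114 ± 1776 CPM.

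The receptors, co-receptor and ligand-processing genes, 10 in all with Pdgfra and Pdgfrb among them, had a median log2 fold change of -0.07. In edgeR 0 passed an adjusted p of 0.05, while an unadjusted p under 0.05 was met by 3 with a lower mean and 0 with a higher one, against 8.52% and 8.48% of all genes. The third was Nrp1, which encodes the co-receptor neuropilin 1 (214 ± 11.1 against 155 ± 26.0 CPM, SD, n = 3 each, edgeR adjusted p = 0.169). Pdgfrl, which encodes a receptor-like protein, stood at 5.76 ± 0.899 and 7.74 ± 1.46 CPM. The protease genes that can cleave PDGF-C or PDGF-D had groups that overlapped: Plat, which encodes tissue plasminogen activator, was at 24.2 ± 2.40 and 22.2 ± 2.47 CPM and Plau at 4.52 ± 0.865 and 4.54 ± 2.29 CPM.

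Among 20 signal transducers downstream of the receptors, such as adaptors and kinases shared with other growth factors, 18 had negative log2 fold changes, where 47.1% of all genes did. The differences were small, with a median of -0.09. An unadjusted p under 0.05 was met by 4 with a lower mean and 0 with a higher one, against 8.52% and 8.48% of all genes, and 0 passed an adjusted p of 0.05 in edgeR. The smallest p belonged to the kinase gene Src (121 ± 7.75 against 99.0 ± 5.99 CPM, SD, n = 3 each, adjusted p = 0.172), followed by Pik3r1, Crk and Shc1, with log2 fold changes of -0.22, -0.16 and -0.21.

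Markers of some cell types that make or receive these signals had lower means as well, and those of others did not. All 10 endothelial genes had lower CPM in every knockdown-labelled lung than in every wild type lung, as did 12.4% of all genes, with a median log2 fold change of -0.45. An unadjusted p under 0.05 with a lower mean, met by 8.52% of all genes, was met by all 10 of them. It was also met by 8 of 10 alveolar type 1 genes (median -0.49) and by 6 of 13 alveolar fibroblast and lipofibroblast genes (median -0.24). Of the 10 alveolar type 2 genes, the other epithelial list, 0 met it in either direction (median -0.06), and their summed level overlapped, at 15689 to 19723 CPM in wild type against 16083 to 20257 CPM. Of 10 pericyte genes 4 were lower at an unadjusted p under 0.05, against 8.52% of all genes. Only 1, Abcc9, was higher at that threshold, against 8.48% of all genes. None of these lists had a gene past an adjusted p of 0.05 in edgeR. Every marker on the 5 lists had counts.

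Each of 4 genes was also set against the summed level of a marker list. The lists and the genes were paired after their values had been seen, and no difference between the genes was tested. Pdgfb stood at 3.99, 4.08 and 3.77 CPM per 100 CPM of summed endothelial markers in wild type. The other group stood at 3.74, 4.11 and 4.004. The groups overlapped, and the log2 ratio differed by 0.0021 between them, with SDs of 0.06 and 0.07 (exact permutation p = 0.9, two-sided, n = 3 each). With 1 lung left out that difference ranged from -0.031 to 0.041, and a p of this size in 3 against 3 lungs does not show that the ratios are equal.
Pdgfa stood at 1.15, 1.20 and 1.13 CPM per 100 CPM of summed alveolar type 1 markers in wild type, against 1.28, 1.30 and 1.72. Here all knockdown-labelled lungs lay higher, with a log2 difference of 0.29 (exact permutation p = 0.1, the smallest possible), or 0.16 without knockdown-labelled replicate 3. Against the type 2 list no ratio was computed.
The alveolar fibroblast list also covers lipofibroblasts, and its sum leans on 1 gene: Mfap4 gave 3325 of 6285 CPM in wild type replicate 1. Pdgfra stood at 3.62, 3.61 and 3.96 CPM per 100 CPM of summed alveolar fibroblast markers in wild type and at 3.78, 3.22 and 3.46 in the other group, which overlapped (log2 difference -0.10, exact permutation p = 0.3, n = 3 each). The difference was -0.19, with the smallest possible exact permutation p of 0.1, when the mean log2 CPM of the list replaced the log2 of its sum. With 1 lung left out it ranged from -0.161 to -0.045, the latter without knockdown-labelled replicate 2, and it was -0.057 without wild type replicate 3.
Tgfbi stood at 3.54, 3.21 and 3.74 against 3.18, 2.64 and 2.54 on the same list. Its groups did not overlap, with a log2 difference of -0.33 (exact permutation p = 0.1, n = 3 each), or -0.42 with the mean log2 CPM of the list.

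**Figure D4:**
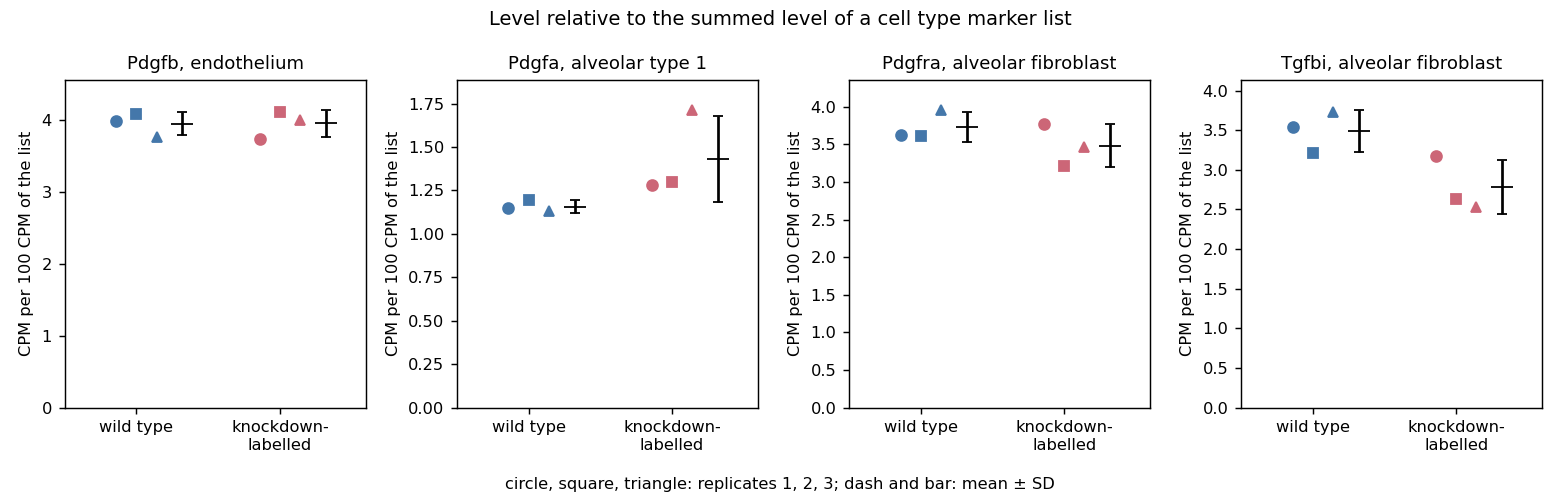
CPM of Pdgfb, Pdgfa, Pdgfra and Tgfbi per 100 summed CPM of a cell type marker list (y axis, from 0) in the 3 wild type and 3 knockdown-labelled lungs, with a symbol for each replicate and a dash with bar for the mean ± SD. Pdgfb per endothelial marker level overlaps between the groups at 3.74 to 4.11, and Tgfbi per alveolar fibroblast marker level is at 3.21 to 3.74 in wild type and 2.54 to 3.18 in the knockdown-labelled lungs.

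The genes most like a member across the 6 lungs were sought among 12766 others with a mean of at least 1 FPKM, by the root-mean-square difference between deviations from each gene's own mean log2 CPM. For Pdgfra they were Osbpl6, Sh3bgrl and Ttc39b, at 0.03, 0.04 and 0.04. For Pdgfa they were Sema3f, Stk35 and Ccdc85b, at 0.02, 0.03 and 0.03. For Tgfbi they were Dgkh, Rhof and Enpp2, at 0.06, 0.07 and 0.07. Among the 9 themselves, Tgfbi was nearest to Pdgfra at 0.14 and Pdgfa next at 0.16, while Pdgfc was farthest at 0.75. The lungs share their libraries and groups, so such likeness is a description.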

How the data were processed

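Poly(A) RNA-seq libraries of 6 whole lungs were analysed. Tools named in the submitters' processing notes are HTSeq 0.6.1, HISAT2 2.0.1 and cutadapt 1.9.1. Strand setting and genome build: not given in the sources used here. Raw counts per gene and FPKM values were deposited by the authors, per the file headers; FPKM recomputed from count, library total and deposited exonic length differed by no more than 0.005. Gene coordinates are the table's and match GENCODE M21 (GRCm38) for 1494 of 52083 shared genes, so no build is named for them.

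Counts as deposited were fitted with edgeR 4.0.16 in R 4.3.3 (filterByExpr, 17728 genes, TMM, group as the only term, quasi-likelihood test, Benjamini-Hochberg adjustment over all genes, two-sided). The standard error was taken as the size of the log2 fold change over the root of its F statistic. CPM use the TMM factors. Shares and ratios were compared by exact permutation. The edgeR fit was also run on simulated counts, drawn independently for each gene and lung, without differences of sex, litter or heart muscle content. No result given here rests on that run. Alternatives were DESeq2 1.42.0, limma 3.58.1 on log2(FPKM + 1) or log2(FPKM + 0.1), other scalings, filters and robust fitting, embryo sex, and leaving out each lung.

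The 9 genes, 15 gene lists and tests were chosen with earlier results of these data known. Named genes are Prmt5, the 9, Pdgfrb, the members of a list with the smallest p (up to 4) or defining markers, and the 3 nearest genes to Pdgfra, Pdgfa and Tgfbi. Sftpc is a defining marker, while Acta2, Eln, Myl9, Pdgfrl, Plat, Plau, Abcc9 and Mfap4 were picked after their values were seen where they fall outside that rule. Replicate numbers follow accession order.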

Additional observations from a re-analysis of the deposited data

How the results depend on the processing

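Of 140 values from refitting single genes among the 9 under another setting, 127 kept direction and side of the adjusted threshold, 4 (Pdgfb, Pdgfc, Pdgfra and Tgfbi) passed it with DESeq2, and 9 had the other sign. The 9 were log2 fold changes near 0. For Pdgfd they were 0.0051 and 0.0099 with limma on log2(FPKM + 1) and log2(FPKM + 0.1), and 0.017 with library totals that leave out heart muscle, erythroid and mitochondrial genes. With 1 lung left out, Pdgfd ranged from -0.15 to 0.059 (above 0 when wild type replicate 1, wild type replicate 3 or knockdown-labelled replicate 1 was left out), Aspn from -0.11 (the value lacking wild type replicate 1) to 0.23, and Lgr6 from -0.28 to 0.10 (above 0 lacking wild type replicate 1 or knockdown-labelled replicate 2). The cause was not tested.

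The number of genes with an adjusted p under 0.05, 6 in edgeR, was 849 with DESeq2, 81 with no filter on low counts, 15 with robust fitting, 3 with limma on log2(FPKM + 0.1), 2 with a mean of at least 5 FPKM, 0 with embryo sex as a covariate in edgeR (2524 at an unadjusted p under 0.05) and 0 to 17 with 1 lung left out. Of the 9 genes, 4 passed with DESeq2 and 0 in the other fits. The 5 with an unadjusted p under 0.05 became 4, none of them higher, with embryo sex in the model, 4 with the reduced library totals, where Pdgfa was lost, 3 at a mean of at least 5 FPKM, where Pdgfc, Pdgfd, Stc1 and Lgr6 were not tested, and 3 to 5 with 1 lung left out; the 3 without wild type replicate 1 were Pdgfb, Pdgfra and Tgfbi. Over all genes tested, an unadjusted p under 0.05 was met by 3015 of 17728 in the main fit and by 2524 with embryo sex. With the reduced library totals it was met by 2999, and at a mean of at least 5 FPKM by 1737 of 9005. Leaving out 1 lung gave from 1663 of 18213 (wild type replicate 1 out) to 3287 of 18138 (knockdown-labelled replicate 1 out). The difference in the Pdgfa share of ligand FPKM was 1.56 to 3.55 percentage points, and that in the log2 ratio of Pdgfrb to Pdgfra -0.01 to 0.15. No paired analysis was possible because the labels give the groups no shared replicate numbers. The ratios to marker lists, the fits of Wnt5a under other settings and the overlaps under other scalings were added after seeing the data. Counts below 3 in a library cannot be told from 0, and no gene of the 9 was near that.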
